A study of Mus musculus with 4 samples.

Results

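Of the m6A peaks listed for inguinal white adipose tissue, a small share lay between genes: the midpoint of 1205 of 22860 peaks in the vehicle list (5.27%, 95% exact binomial interval 4.99 to 5.57) and of 1924 of 31856 in the entacapone list (6.04%, 5.78 to 6.31) fell in no protein-coding, lncRNA or pseudogene span. Together these are 3129 of 54716 listed peaks, and they are called outside peaks here; all other peaks are called inside peaks. A span is the stretch from the first to the last base of a gene in RefSeq's annotation of GRCm38.p6, the assembly also named mm10, and 45223 spans were used (21887 protein-coding, 12727 lncRNA and 10609 pseudogene). All groups were C57BL/6 male mice of 23 weeks with obesity from a high-fat diet, treated with vehicle or with entacapone, a catechol-O-methyltransferase inhibitor used in Parkinson's disease that is also known to block FTO, an enzyme that removes m6A. Each treatment had 1 input library and 1 immunoprecipitated (IP) library, and whether a library came from 1 animal or from a pool is not stated. With 1 library per group no difference has a replicate check and no test across animals is possible. The intervals given are exact (Clopper-Pearson), cover counting error only and describe these lists, not the treatments.

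N6-methyladenosine (m6A) is a methyl mark that a nuclear methyltransferase complex places on adenosines of messenger and long noncoding RNA, mostly in the sequence context whose core is GGAC, and that reader proteins bind to alter the fate of the RNA. In messenger RNA it is known to be dense around the stop codon and in the last exon, and it also occurs in RNA made at promoters and enhancers and in RNA of transposable elements. An m6A peak is a stretch of the genome where fragments pulled down by the antibody pile up above the input. An outside peak has its midpoint where the annotation used here places no span of the types counted. An edge of 49 of 1205 vehicle (4.07%) and 78 of 1924 entacapone outside peaks (4.05%) still touched such a span. The library kit keeps no strand, so the strand of the RNA under a peak is not known.

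The outside peaks for which sequence was at hand were those just before an annotated gene start. RefSeq's table of promoter windows gives the 250 bases before each gene start, and 59 vehicle and 72 entacapone outside peaks had their midpoint in such a window. For 50 protein-coding genes a peak of each list covered the same bases of the window. The 5 longest of these common stretches are shown first. For these 5 the peaks of both lists crossed the gene start into the span, and only bases before the start are printed. Sesn1 is shown because it is a known target gene of FOXO transcription factors, and Sfrp5 and Bmp6, which encode secreted proteins acting on WNT and BMP signalling, because their common stretch held no GGAC. Each sequence is from RefSeq's GRCm38.p6 table, 5′ to 3′ on the strand of the gene, and capitals mark GGAC or its reverse complement GTCC.
H3c14, chr3:96246435-96246684, plus strand: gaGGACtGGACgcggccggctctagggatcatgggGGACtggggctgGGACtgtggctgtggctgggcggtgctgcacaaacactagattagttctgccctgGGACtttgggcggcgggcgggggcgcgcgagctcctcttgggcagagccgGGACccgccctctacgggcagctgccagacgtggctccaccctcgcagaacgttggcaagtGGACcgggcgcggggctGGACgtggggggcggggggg
Svep1, chr4:58206597-58206846, minus strand: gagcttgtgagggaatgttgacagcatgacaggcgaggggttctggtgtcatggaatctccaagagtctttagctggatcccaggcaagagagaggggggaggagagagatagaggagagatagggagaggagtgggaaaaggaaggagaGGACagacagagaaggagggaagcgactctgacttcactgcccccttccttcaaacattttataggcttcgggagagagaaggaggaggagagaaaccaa
Fancl, chr11:26386841-26387083, plus strand: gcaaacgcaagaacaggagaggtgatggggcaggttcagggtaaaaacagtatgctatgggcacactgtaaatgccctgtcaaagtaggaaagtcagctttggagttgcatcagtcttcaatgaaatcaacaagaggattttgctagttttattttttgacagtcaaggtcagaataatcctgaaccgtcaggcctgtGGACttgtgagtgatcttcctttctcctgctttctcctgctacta
Il17d, chr14:57524600-57524828, plus strand: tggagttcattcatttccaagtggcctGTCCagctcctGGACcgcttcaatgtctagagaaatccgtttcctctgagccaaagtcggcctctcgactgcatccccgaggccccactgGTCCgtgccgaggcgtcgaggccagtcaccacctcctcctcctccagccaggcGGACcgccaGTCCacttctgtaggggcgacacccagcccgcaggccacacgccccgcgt
Irx3, chr8:91801655-91801850, minus strand: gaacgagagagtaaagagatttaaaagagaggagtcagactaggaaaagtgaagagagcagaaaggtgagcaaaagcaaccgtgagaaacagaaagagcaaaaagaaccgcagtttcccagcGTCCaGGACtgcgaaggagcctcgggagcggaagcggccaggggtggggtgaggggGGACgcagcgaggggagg
Sesn1, chr10:41810324-41810365, plus strand: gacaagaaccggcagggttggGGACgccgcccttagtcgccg
Sfrp5, chr19:42202416-42202502, minus strand: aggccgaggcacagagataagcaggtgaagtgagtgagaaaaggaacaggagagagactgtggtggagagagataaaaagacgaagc
Bmp6, chr13:38345548-38345606, plus strand: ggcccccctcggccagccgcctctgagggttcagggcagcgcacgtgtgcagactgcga
The stretch before H3c14, a replication-dependent histone H3 gene, held GGAC 8 times on the gene's strand and GTCC 0 times. Those before Il17d, which encodes an interleukin, and before Irx3, a homeobox gene in the chromosomal neighbourhood of Fto, held both forms. Of the 50 common stretches, which were 9 to 250 bases long, 32 held at least 1 of the forms. No share for other stretches of such lengths was computed. Over the whole 250-base windows of these genes the share was 47 of 50 (94.0%), against 15986 of 19827 windows of all gene types in RefSeq's table (80.6%) that begin at the outer end of their gene's span. For GGAC on the gene's strand alone the counts were 39 of 50 (78.0%, 64.0 to 88.5) and 11086 of 19827 (55.9%). On the other strand alone they were 35 of 50 (70.0%, 55.4 to 82.1) and 11423 of 19827 (57.6%), the latter within the interval. The 50 windows are all of protein-coding genes, unlike the larger set, and base content was not matched. Med29 and Paf1 rest on the same pair of peaks, which the intervals ignore. Such short motifs are common, the motif and its complement cannot overlap here, and a match is a description of the letters only. The Irx3 peaks lay at chr8:91801536-91801850 (vehicle, fold 4.29) and at chr8:91801538-91801880 (entacapone, fold 5.29). The Sesn1 peaks lay at chr10:41810257-41810634 (fold 3.88) and chr10:41810252-41810365 (fold 3.63). The fold is an unlabelled number in each of the authors' lists, taken here as the enrichment of IP over input. It serves to describe and rank peaks within its list.

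Outside peaks were less often shared between the lists than peaks inside genes. A peak counts as shared when it overlaps a peak of the other list by at least 1 bp. In the vehicle list 857 of 1205 outside peaks were shared (71.1%, 68.5 to 73.7), against 17145 of 21655 inside peaks (79.2%, 78.6 to 79.7). In the entacapone list 851 of 1924 were shared (44.2%, 42.0 to 46.5), against 16946 of 29932 inside peaks (56.6%, 56.1 to 57.2). Put the other way, 348 outside peaks (28.9%) were in the vehicle list alone, where 21.3% of all vehicle peaks were, and 1073 (55.8%) in the entacapone list alone, where 44.1% of all entacapone peaks were. Peaks in lncRNA spans alone lay near the outside peaks in the vehicle list (72.0% shared) and between the outside and inside peaks in the entacapone list (49.2%). When the same number of top-ranked outside peaks was taken from each list, the shared shares were 38.4% for vehicle and 37.3% for entacapone. Sets of equal size give nearly equal shares by construction, and this setting also drops the lower-ranked partners, so it says nothing of why the lists differ.

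Outside peaks were narrower than inside peaks and had larger folds. The median outside width was 104 bp in the vehicle list (quartiles 71.0 and 161) and 100.5 bp in the entacapone list (68.0 and 156), against 116 and 113 bp inside genes. Peaks of at least 300 bp made up 7.30% of vehicle and 6.13% of entacapone outside peaks, and 10.3% and 10.7% of inside peaks. The median fold was 4.65 and 4.45 outside, against 3.26 and 3.02 inside. A fold of at least 4 was listed for 64.8% and 60.1% of outside peaks and for 33.3% and 27.6% of inside peaks. A fold rests on the reads under a peak, which the lists do not give, so the part of input depth in this difference was not tested.

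**Figure D1:**
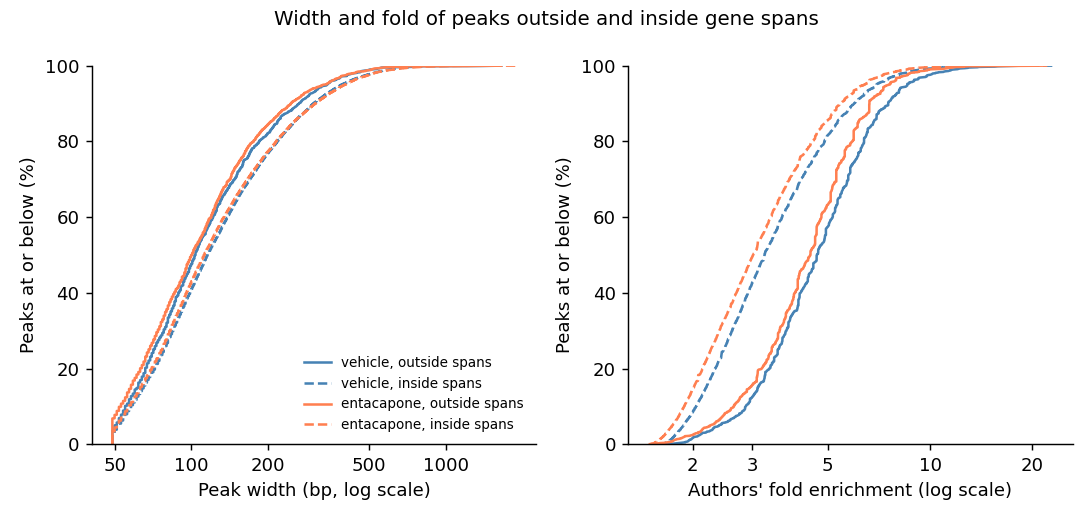
Cumulative share of peaks (%) by peak width in bp (left, log scale) and by fold (right, log scale). The fold is the unlabelled number of the authors' lists, taken as enrichment of IP over input. Lines show peaks outside (solid) and inside (dashed) gene spans in the vehicle (blue) and entacapone (orange) lists. Solid lines lie left of dashed lines for width, with medians of 104 and 100.5 bp against 116 and 113 bp, and right of them for fold, with medians of 4.65 and 4.45 against 3.26 and 3.02.

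Sharing rose with width in both positions, and at a given width outside peaks were still the less shared ones. Outside vehicle peaks of 80 to under 150 bp were shared in 68.4% of cases (64.0 to 72.6), against 76.9% inside genes (76.0 to 77.8). At 150 bp or more the vehicle shares were 89.1% and 95.0%, and below 80 bp they were 57.4% (52.2 to 62.4) and 60.4% (59.1 to 61.7), intervals that overlap. In the entacapone list the corresponding shares were 44.5% outside and 50.6% inside at 80 to under 150 bp, 70.6% and 83.6% at 150 bp or more, and 23.7% and 30.7% below 80 bp. By fold the gap was not uniform. Under a fold of 3, outside peaks were shared in 89.3% of vehicle (83.3 to 93.8) and 59.3% of entacapone cases (53.5 to 64.9), against 84.9% (84.1 to 85.6) and 57.4% (56.6 to 58.2) inside, with overlapping intervals. At a fold of 6 or more the shares were 69.7% outside (64.2 to 74.9) and 71.6% inside for vehicle and 44.4% (39.0 to 50.0) and 53.1% for entacapone. At a fold of 4 to under 5 they were 64.9% against 71.8% for vehicle (58.9 to 70.6 and 70.2 to 73.4) and 38.5% against 52.2% for entacapone (34.0 to 43.2 and 50.6 to 53.8). Shared outside peaks had a median width of 118 bp in the vehicle and 134 bp in the entacapone list, and list-only outside peaks of 82.0 bp in each.

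Outside peaks lay close to protein-coding genes. The median distance from a peak's midpoint to the nearest protein-coding gene end was 4187 bp in the vehicle list (quartiles 815 and 22873 bp) and 5621 bp in the entacapone list (953 and 24154 bp). Within 5 kb lay 51.5% of vehicle (48.7 to 54.4) and 47.6% of entacapone outside peaks (45.3 to 49.8), whereas 9.15% of all gene-free bases lie that close. Gene-free bases are those between the first and last span of each chromosome that no used span covers, unsequenced gaps included, 1467.3 Mb in all. Per Mb of such sequence, the vehicle list held 10.7 peaks within 1 kb, 2.03 at 1 to 10 kb, 0.674 at 10 to 100 kb and 0.152 beyond 100 kb. The entacapone list held 15.3, 3.40, 1.12 and 0.255 over the same zones. Still, 463 vehicle and 769 entacapone outside peaks were over 10 kb from any protein-coding gene end.

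**Figure D2:**
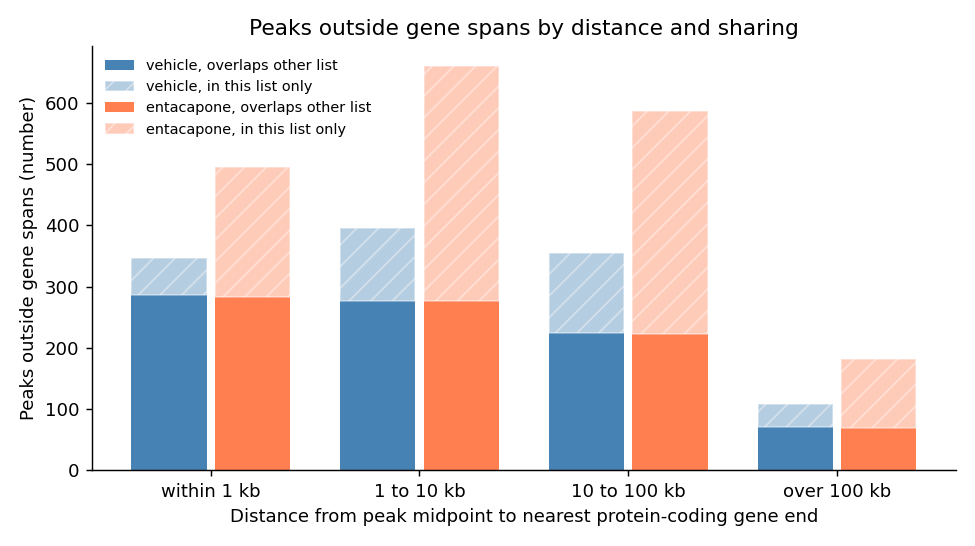
Number of outside peaks by distance of the midpoint to the nearest protein-coding gene end, for the vehicle (blue) and entacapone (orange) lists; solid parts overlap a peak of the other list and hatched parts do not. Within 1 kb 286 of 347 vehicle and 283 of 495 entacapone peaks are shared, and over 100 kb 70 of 109 and 69 of 182 are.

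The outside peaks nearest to genes were the most often shared. Within 1 kb 82.4% of vehicle (78.0 to 86.3) and 57.2% of entacapone outside peaks (52.7 to 61.6) were shared. At 1 to 10 kb the shares were 70.1% and 41.8%. At 10 to 100 kb 224 of 354 vehicle and 223 of 587 entacapone peaks were shared. Over 100 kb the shares were 64.2% and 37.9%. Within 1 kb the vehicle share thus lay above that of inside peaks (79.2%), with an interval that includes it, and the entacapone share matched its inside value (56.6%) within the interval.

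More outside peaks lay before gene starts than past gene ends. The strand is known for 17492 of the 21887 protein-coding genes (79.9%), from RefSeq's promoter table, and for the others no side is given. Within 1 kb, 83 of 274 vehicle peaks (30.3%, 24.9 to 36.1) and 120 of 376 entacapone peaks (31.9%, 27.2 to 36.9) were on the 3′ side, which holds 51.6% of the gene-free bases at that distance. At 1 to 3 kb the 3′ side held 90 of 169 (53.3%, 45.4 to 61.0) and 121 of 223 (54.3%, 47.5 to 60.9), intervals that include equal shares. At 3 to 10 kb it held 68 of 161 (42.2%, 34.5 to 50.3) and 151 of 321 (47.0%, 41.5 to 52.7). These intervals also include equal shares. In the first 500 bp the density was 19.6 peaks per Mb before the start and 7.69 past the end in the vehicle list, and 26.7 and 11.8 in the entacapone list. Peaks with a midpoint before a start and an edge across it are among those counted. Whether a peak before a start belongs to RNA of that gene from an earlier start or to another transcript was not tested.

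**Figure D3:**
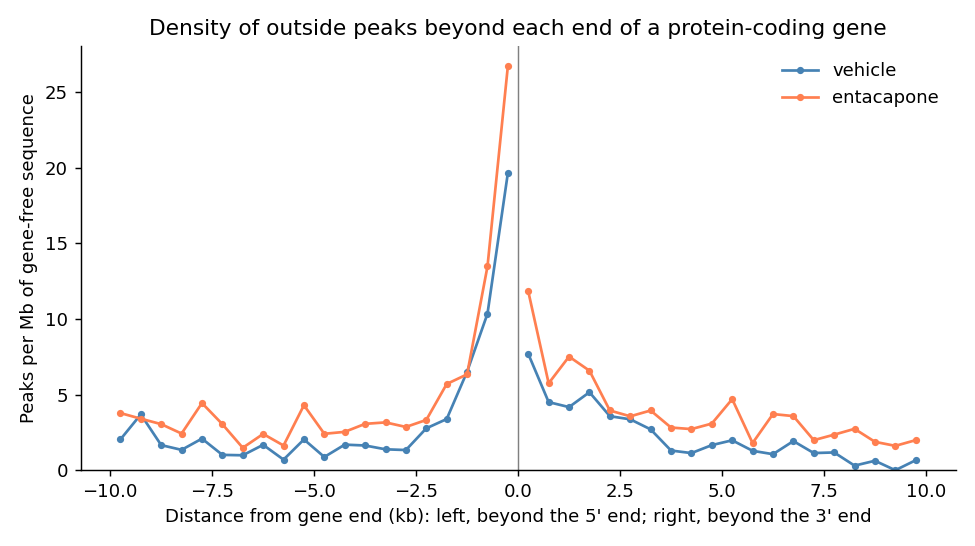
Outside peaks per Mb of gene-free sequence in 500-bp bins beyond the 5′ end (left of 0) and the 3′ end (right of 0) of the nearest protein-coding gene of known strand, in kb, for the vehicle (blue) and entacapone (orange) lists. The bin next to the 5′ end stands highest, at 19.6 and 26.7 peaks per Mb, against 7.69 and 11.8 in the bin next to the 3′ end.

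The genes beside these peaks usually carried a peak of their own. Of outside peaks within 10 kb on the 3′ side, 64.3% of vehicle and 69.4% of entacapone peaks neighboured a gene that also had an inside peak in that list, and on the 5′ side 70.0% and 81.4% did. Over all protein-coding genes, 41.1% and 50.0% had an inside peak. The units differ: the former shares count peaks beside genes of known strand, so a gene can count repeatedly, and the latter count each gene once. Shared outside peaks on the 3′ side alone occurred at 136 genes, of which 36 (26.5%) had no inside peak in either list; of all protein-coding genes 10423 (47.6%) had none. Adipoq was 1 of the 36.

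Adipoq, which encodes the adipocyte hormone adiponectin, had no peak within its span, which ends at position 23157968 of chromosome 16, and 2 shared peaks just past its 3′ end. The first lay at chr16:23158834-23159043 in the vehicle list (fold 2.43) and at chr16:23158817-23159037 in the entacapone list (fold 2.28), with midpoints 970 and 959 bp past the end. The second lay at chr16:23159381-23159526 (fold 2.13) and chr16:23159374-23159536 (fold 2.10), 1485 and 1487 bp past the end. The peak positions of the lists thus differ by less than 20 bp at either edge. Whether these peaks belong to a longer Adipoq transcript was not tested.
Other genes of this kind, picked after their values were seen, included Sesn3, a stress-response gene of the sestrin family, with 2 shared peaks in each list at 3984 to 5851 bp past its 3′ end and folds of 2.24 to 2.52. Frrs1l, which encodes a component of AMPA-type glutamate receptor complexes, had a shared peak at its 3′ end with folds of 15.5 (vehicle) and 5.67 (entacapone). Hal, the histidine ammonia-lyase gene, had a shared peak 736 and 741 bp past its 3′ end with folds of 8.97 and 9.69.

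Merging overlapping outside peaks of both lists gave 2271 regions: 830 with peaks of both lists (36.5%), 358 with vehicle peaks alone and 1083 with entacapone peaks alone. Regions often stood in runs. A run is defined here as at least 3 regions in 1 stretch between gene spans with gaps of at most 2 kb, and 133 runs held 498 regions (21.9%). Most were short: 80 runs had 3 regions, 37 had 4 and 16 had 5 or more, and the median run covered 1834 bp (557 to 10592 bp). Peaks of both lists were present in 118 runs (88.7%, 82.1 to 93.5), entacapone peaks alone in 13 and vehicle peaks alone in 2. Runs were built from at least 3 merged regions of both lists, so most would hold both lists by construction. The share therefore does not measure agreement between the lists. Entacapone peaks in runs were shared in 56.8% of cases (51.9 to 61.6), against 40.7% (38.2 to 43.3) for the other entacapone outside peaks. For vehicle peaks the shares were 74.4% (69.2 to 79.1) and 69.9% (66.8 to 73.0), with overlapping intervals.

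By place, 43 runs lay within 1 kb of a protein-coding gene end, 36 at 1 to 10 kb and 54 (40.6%, 32.2 to 49.5) over 10 kb from any, 14 of these over 100 kb away. Of the 63 runs within 10 kb of a gene of known strand, 23 were past a 3′ end and 40 before a 5′ start. Of all 133 runs, 8 touched a gene of a type that the rule leaves out. The lists hold no splice or strand data, so whether runs past a 3′ end belong to longer transcripts of that gene, and runs far from genes to unannotated transcripts, was not tested.

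The 2 runs with the most regions lay at loci of interferon-inducible GTPases, large families of GTP-binding proteins that act in defence within cells. The first, of 16 regions over 10592 bp at chr7:106501048-106511640, lay between Gvin1 and Gm1966, at least 83.91 kb from either. Most of it lay within the span of Gm8995 (chr7:106502153-106529202), which RefSeq lists as a misc_RNA, a type the rule leaves out. The run held 12 vehicle peaks, all shared, with folds of 3.02 to 5.29, and 16 entacapone peaks, 12 of them shared, with folds of 2.03 to 4.59. The second, of 13 regions at chr11:49014183-49020009, lay between Tgtp1 (21.94 kb) and 9930111J21Rik2 (17.65 kb). It held 11 vehicle peaks (8 shared, folds 2.89 to 5.60) and 12 entacapone peaks (10 shared, folds 1.86 to 5.53). In both of these runs most regions were present in both lists. These families hold near-identical copies, so reads of 1 copy can be placed on another, and the place of these peaks is uncertain to that extent.

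A further run by a member of this family went with 1 list. On chromosome 18, 7 regions that began 39 bp past the end of the span of F830016B08Rik and reached 5.44 kb held 7 entacapone peaks (folds 2.36 to 5.96) and 1 vehicle peak (fold 5.33). The vehicle peak overlapped an entacapone peak, so 6 of the 7 regions were in the entacapone list alone. In all, 27 vehicle (2.24%) and 44 entacapone outside peaks (2.29%) had an interferon-inducible GTPase gene as the nearest protein-coding gene. Of these, 23 and 25 were shared, against 71.1% and 44.2% of all outside peaks. Only 2 and 8 of them lay within 10 kb of such a gene, and the totals overlap the runs above.

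Trim56, which encodes a ubiquitin ligase of antiviral signalling, had a run past its 3′ end in which every peak was shared. Its 7 regions began 62 bp past the end and reached 5.56 kb at chr5:137105722-137111224, with 7 vehicle and 7 entacapone peaks. Their folds were low, at 2.31 to 3.22 in the vehicle list and 1.79 to 2.96 in the entacapone list. Zfp971, a zinc finger gene, likewise had 7 regions from 42 bp to 2.87 kb past its 3′ end at chr2:178035901-178038730. All 7 vehicle peaks there were shared (folds 2.95 to 7.67) and 6 of 7 entacapone peaks (folds 2.69 to 8.97). Both genes also carried inside peaks in both lists.

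**Figure D4:**
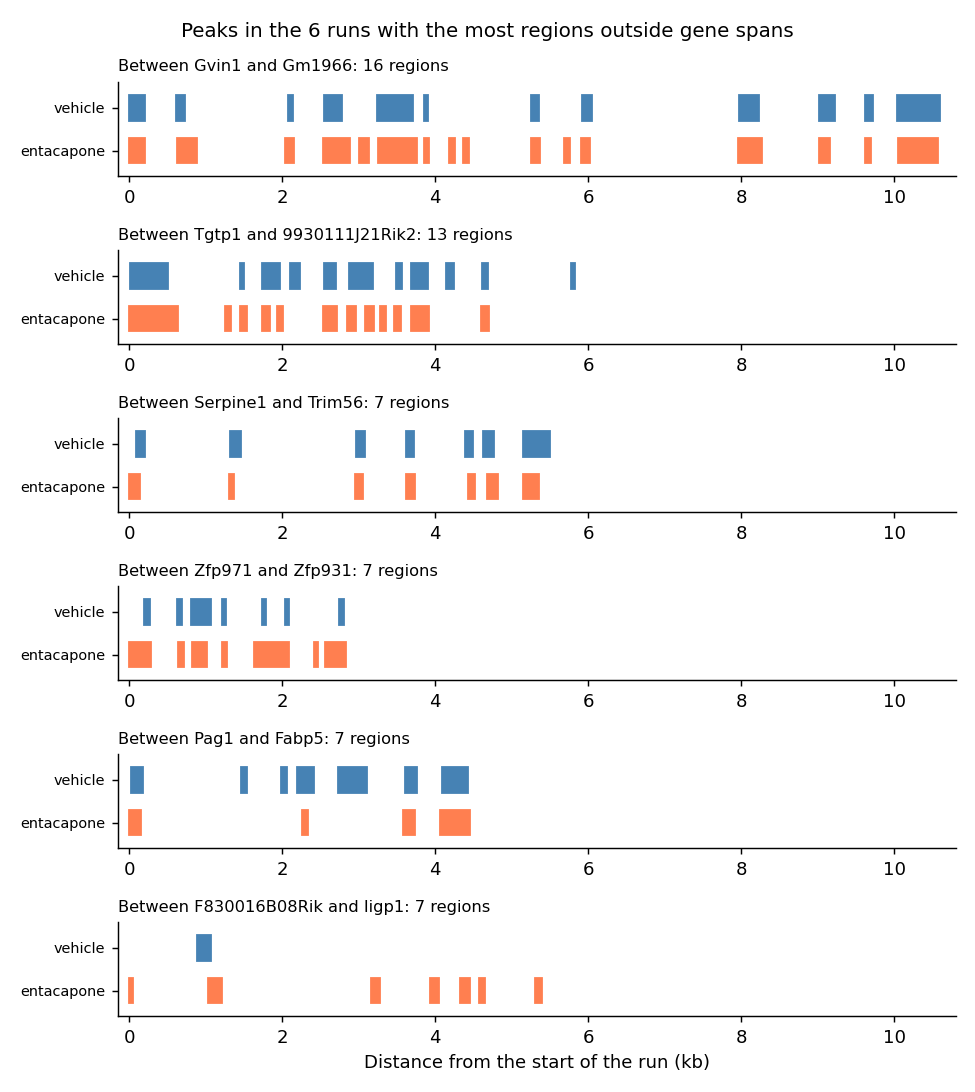
Peaks of the vehicle (blue) and entacapone (orange) lists in the 6 runs with the most outside regions, drawn to scale by distance from the start of each run in kb; each panel names the protein-coding genes on either side. The lists mark mostly the same positions in the panels with 16, 13 and 7 (Trim56 and Zfp971) regions, whereas the run beside F830016B08Rik has 1 vehicle and 7 entacapone peaks and the run between Pag1 and Fabp5 has 7 vehicle and 4 entacapone peaks.

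The other runs with the most regions differed in distance and in sharing. The run at chr3:9931711-9936170, between Pag1 and Fabp5, a fatty acid binding protein gene, was 76.42 kb from the nearer of them and held 7 vehicle peaks (4 shared, folds 3.27 to 6.39) and 4 entacapone peaks, all shared. That at chrX:95965447-95968696 lay 8.47 kb before the start of Las1l, a ribosome biogenesis gene, with 4 vehicle peaks, all shared, and 6 entacapone peaks. Runs of 6 regions were also found 10.57 kb past the 3′ end of D130040H23Rik (4 vehicle and 6 entacapone peaks, 4 shared in each list) and 6.43 kb before the start of Galnt15, a gene of mucin-type glycosylation (3 and 6 peaks, 3 shared in each list). The run at chrX:8860476-8862823, 8.75 kb before Gm5751, had 5 peaks in each list, all shared.

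By gene, Slfn8, of the interferon-induced Schlafen family, had the most outside regions within 10 kb. Its 12 regions comprised 8 before the start and 4 past the 3′ end, with 7 vehicle and 11 entacapone peaks, 6 shared in each list, and folds of up to 8.57 and 6.81. Of the 8, a run of 3 that began 7.23 kb before the start touched Slfn10-ps, which RefSeq lists as a misc_RNA. Trim56, Zfp971 and F830016B08Rik followed with 7 each. Efna5, Polr3k, Zfp366, Ctdspl and Galnt15 had 5 each, and Bcl9l was 1 of 22 genes with 4. At Efna5, which encodes the guidance ligand ephrin-A5, none of the 5 outside peaks was shared: 4 were vehicle peaks at 60 to 1296 bp before the start (folds 3.28 to 7.55) and 1 was an entacapone peak (fold 2.66). Between Hoxc10 and Hoxc9, which specify position along the body axis, 4 regions beside Hoxc9 held 4 peaks in each list, all shared, with folds of 2.25 to 3.35 and 2.32 to 3.03.
Among families named by symbol, 38 of 397 zinc finger (Zfp) genes (9.57%) had an outside region within 10 kb nearest to them, against 4.4% of all protein-coding genes (963 of 21887). The counts were 6 of 72 (8.33%) for histone genes, 2 of 23 (8.70%) for interferon-inducible GTPase genes, 2 of 8 for Slfn genes and 2 of 39 (5.13%) for Hox genes. The share was 4.27% for solute carrier genes and 0.901% for olfactory receptor genes, whose transcripts are made mainly in the nose.

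Antigen receptor loci held a group of outside peaks of their own. RefSeq types these immunoglobulin and T cell receptor genes as segments, which the rule does not count as gene spans, so peaks there lie outside unless another span covers them. In the vehicle list 33 outside peaks (2.74%) lay in such a locus, 21 of them shared (63.6%, 45.1 to 79.6), and in the entacapone list 74 (3.85%), 21 of them shared (28.4%, 18.5 to 40.1). The immunoglobulin heavy chain locus Igh held 15 vehicle and 39 entacapone peaks, the T cell receptor beta locus Tcrb 9 and 14, and the kappa light chain locus Igk 5 and 9. On V segments, the variable parts that B and T cells join in different combinations, lay 13 vehicle and 41 entacapone peaks, 8 shared in each list. The entacapone peak of largest fold in Igh lay on Ighv1-19 at chr12:114708695-114708858 (fold 11.3) and was shared (fold 5.25). The inguinal depot encloses a lymph node, and some lymph node marker genes carried inside peaks in both lists: Pax5 had 4 vehicle and 9 entacapone peaks and Ptprc 3 in each, while Cd3e had 0 and 2. The part of lymphocyte content in the receptor peaks was not tested. V segments resemble each other closely, so the segment named for a peak is uncertain. Without the receptor loci, 71.3% of vehicle and 44.9% of entacapone outside peaks were shared, close to the values with them.

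**Figure D5:**
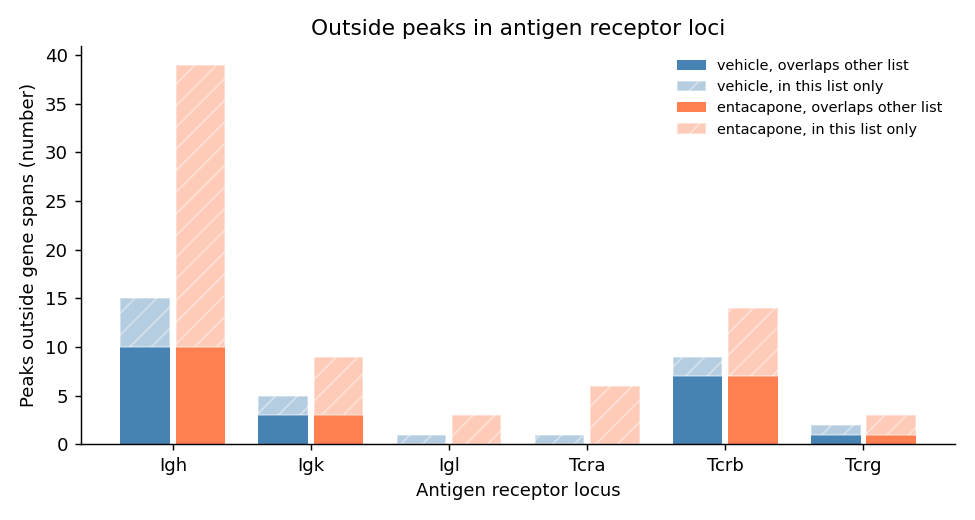
Number of outside peaks in each antigen receptor locus for the vehicle (blue) and entacapone (orange) lists, with shared peaks solid and list-only peaks hatched. Igh has 15 vehicle and 39 entacapone peaks, 10 of each shared, and Tcra has 1 and 6, none shared.

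Other outside peaks coincided with genes of types that the rule leaves out. Apart from receptor loci, 34 vehicle and 47 entacapone outside peaks lay in spans of such genes, 26 shared in each list, mostly misc_RNA (32 and 45). No outside peak of either list lay in a snoRNA, snRNA, miRNA, tRNA or rRNA span. The vehicle outside peak with the largest fold lay in Emx2os, the antisense RNA of the homeobox gene Emx2, at chr19:59427111-59427175 with a fold of 18.7. It overlapped the entacapone peak at chr19:59427115-59427168, with a fold of 18.9, so this 64-bp site stood high in both lists. Other top folds often differed between the lists. The vehicle peak near Xrcc4, a DNA repair gene, at chr13:89834194-89834298 had a fold of 13.9 and its entacapone partner 3.36, and the entacapone peak near Serpina9 at chr12:103995559-103995654 had 21.9 and its vehicle partner 4.64. Of the list-only peaks, the largest fold was 17.2 in the vehicle list, on chromosome Y, and 15.2 in the entacapone list, 13.38 kb past the 3′ end of H2-Q2, a class I histocompatibility gene. The widest outside peaks in both lists were the same pair on chromosome Y: chrY:90811247-90812904 (1657 bp) with its entacapone partner of 1656 bp, and chrY:90737500-90738874 (1374 bp) with a partner of 1345 bp.

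Among 15 gene lists drawn up for this tissue, 18 of 248 genes found in RefSeq (7.26%) had an outside region within 10 kb nearest to them, against the 4.4% of all protein-coding genes given above. White adipocyte genes contributed 3 of 18: Adipoq, Cebpa and Cd36. Cebpa, which encodes a transcription factor of fat cell differentiation, had no inside peak and 1 shared peak 953 and 963 bp before its start (folds 2.27 and 2.96). Cd36, the fatty acid translocase gene, had 2 vehicle peaks and 1 entacapone peak at 6.38 to 7.46 kb past its 3′ end, with 1 pair shared (folds 4.63 and 4.35). Among lipolysis genes 1 of 14 counted, G0s2, an inhibitor of adipose triglyceride lipase, whose shared peak of 478 bp in the vehicle and 448 bp in the entacapone list lay about 7.5 kb before its start with folds of 8.94 and 4.25. G0s2 also had 2 vehicle-only peaks at 8.31 and 9.39 kb (folds 3.56 and 3.28). For lipid synthesis it was Agpat2 (1 of 18, 1 entacapone peak) and for fatty acid oxidation Acadm (1 of 14, 1 vehicle peak), neither peak shared. No gene of the thermogenic (17 genes), circadian clock (19), endothelium (12) or skeletal muscle (15) lists had such a region.

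Of 20 genes of the m6A machinery, 3 had an outside region, each from the entacapone list alone: Ythdf2 and Ythdc2, which encode m6A-binding proteins, and Mettl16, which encodes a methyltransferase. Their folds were 6.63, 8.56 and 3.76, at 366, 709 and 1150 bp from the gene. Of all entacapone outside peaks, 55.8% were likewise in that list alone. Among immediate early genes Nr4a2 had 2 entacapone-only peaks past its 3′ end (folds 5.71 and 6.34), and Egr3 a shared peak that touched its span in the entacapone list. The macrophage transcription factor gene Maf had 2 shared peaks within 0.69 kb of its span (folds 1.99 to 2.94), and Ebf1, a transcription factor gene of fibroblasts, B cells and fat cells, a shared peak 629 and 623 bp before its start (folds 1.88 and 1.71). Of 17 lymphocyte and lymph node genes 2 had such a region: Ikzf3, a lymphocyte transcription factor gene, had a shared peak with folds of 11.1 and 4.93 and 2 entacapone-only peaks, and Ccr7, a chemokine receptor gene, had 1 vehicle-only peak (fold 6.96). Of 15 interferon response genes Ifih1, an RNA sensor gene, had a shared peak at 4.24 and 4.26 kb past its 3′ end (folds 5.25 and 5.12), and Usp18 1 entacapone-only peak. Of 21 insulin and FOXO genes only Sesn1 counted, with the peaks before its start given above.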

How the data were processed

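m6A immunoprecipitates and inputs of 4 libraries were made; the peak lists of both immunoprecipitates were used. Per the submitters' processing notes, TopHat2 2.1.1, MACS2 and mm10 were used; the sources used here state no MACS2 version or threshold. The deposited lists give chromosome, start, end and an unlabelled number, taken as a linear ratio of IP over input because frequent values are evenly spaced. The base of the start coordinate (0 or 1) is unknown. The authors' deposited raw counts of the inputs summed to 24548212 (vehicle) and 33164576 (entacapone) and served only to describe depth; depth of the immunoprecipitates is not given. The other deposited columns, chromosome, start and end, are positions.

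Midpoints were set against RefSeq spans with pandas 2.3.3 and numpy 2.4.6, intervals came from scipy 1.17.1, and the steps were tested on made-up intervals. Named regions were the 10 runs and 10 genes with the most regions, shared and list-only peaks of largest fold, the widest peaks, and peaks within 10 kb of listed genes; exceptions are marked. Not every region that meets these rules is printed. The members, lists and rules were chosen with earlier results of these data known. Alternatives changed the gene types, overlap, distance limit, run gap and fold minimum. As a tissue check, adipocyte genes Lep, Plin1, Pparg and Cidec had inside peaks in both lists, Lipe in the entacapone list alone, and Fabp4 and Adipoq in neither. Of other cell types, skin genes Krt5 and Krt14 and the muscle gene Myh1 had peaks in both lists; Myh4 had 3 vehicle peaks and no entacapone peak, and Ttn, Cdh5 and Pecam1 had 9, 5 and 4 entacapone peaks and no vehicle peak. A marker gene of the tissue check is not reported here.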

Additional observations from a re-analysis of the deposited data

How the results depend on the processing

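Of 58 alternative values, 29 stayed close to those reported (counts within 1.5 times, other values within the interval) and 29 moved. With protein-coding spans only, outside peaks numbered 2257 (vehicle) and 3468 (entacapone), and at a fold of at least 4 they numbered 781 and 1156. The shared share, vehicle first, was 63.1% and 36.9% with an overlap of at least 50% of the peak, 52.5% and 33.0% with 50% of both peaks, 42.5% and 28.6% at a fold of at least 4 in both lists, and 38.4% and 37.3% with equal numbers of top-ranked peaks. The share near a gene end was 28.8% and 25.7% at a limit of 1 kb, 61.6% and 60.0% at 10 kb, 82.9% and 82.3% at 50 kb, 64.9% and 62.0% for the ends of all span types, and 44.6% and 41.1% at a fold of at least 4. The median width of shared outside peaks was 118 and 134 bp. The 3′ share over all distances was 45.6% and 46.5%. Runs numbered 62 at a fold of at least 4 and 28 from regions in both lists, and 32.1% of the latter were over 10 kb from a gene end. By construction a stricter fold keeps fewer peaks, and a stricter overlap counts fewer of the same peaks as shared. For the other settings the cause was not tested. No paired analysis was possible because each kind of library had 1 sample. Read depth under the peaks is not in the lists, so its limit on sharing is unknown.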
